A study of Homo sapiens with 5 samples.

Results

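The CREB family factors and their coactivators were followed by 10 genes, namely CREB1, CREB3, CREB3L2, CREB3L4, CREB5, CREM, ATF1, ATF2, CREBBP and EP300, of 19775 genes with a probe set. Their members were every probe set that the gene table pairs with 1 of these genes alone. The table gave 31 such probe sets for 9 of the 10 genes, and ATF1 was not analysed here. RNA labelled as from C4-2B, a prostate cancer line derived from LNCaP that forms bone metastases, was measured on 5 Affymetrix arrays, 1 for each condition. The control cells received 0.1% DMSO, and the labels give no hours for them. The treated cells received 25 µM BR-DIM (called B-DIM in the labels) for 6 h or 48 h, or 25 µM isoflavone for 6 h or 72 h. BR-DIM is a formulated 3,3′-diindolylmethane. The isoflavone is the mixture G2535, whose concentration counts its genistein. With 1 array for each condition, differences could not be set against replicates, so p-values are left out and the values describe these 5 arrays alone. Where 4 values are given in order, they belong to BR-DIM at 6 h and 48 h and then isoflavone at 6 h and 72 h.

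CREB1, CREM and ATF1 are basic leucine zipper factors that bind the cAMP response element (CRE) and are switched on when protein kinase A, calcium-dependent kinases or growth factor kinases phosphorylate them. The phosphorylated factor then recruits the acetyltransferases CBP (CREBBP) and p300 (EP300). The control is therefore largely on the protein, and the arrays measured mRNA only. ATF2 and CREB5 are relatives that bind similar elements, often with JUN. CREB3, CREB3L2 and CREB3L4 are made as membrane proteins of the endoplasmic reticulum and are cut free in the Golgi by the proteases S1P and S2P. In prostate cells the group is known for cAMP signaling and secretory function.

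The promoters of CREB3L2 and CREM are shown because theirs were the members' RefSeq promoter windows with a complete CRE, TGACGTCA. Each window runs from 250 bases before a transcription start to 50 bases after it, on build GRCh38.p14, and is written 5′ to 3′ on the gene's strand. The table held 21 windows for 9 of the 10 genes, with ATF2 not among them. Capitals mark the complete element, which reads the same on both strands. It holds a match to the 5-letter core TGACG and an overlapping match to its reverse complement CGTCA.

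CREB3L2, chr7:138002037-138002336, minus strand: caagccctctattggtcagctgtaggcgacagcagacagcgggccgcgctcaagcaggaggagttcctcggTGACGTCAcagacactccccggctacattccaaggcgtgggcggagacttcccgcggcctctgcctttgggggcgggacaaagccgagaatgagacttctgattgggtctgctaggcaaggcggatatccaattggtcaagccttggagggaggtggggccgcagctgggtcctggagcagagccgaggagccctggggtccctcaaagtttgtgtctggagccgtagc

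CREM, chr10:35195652-35195951, plus strand: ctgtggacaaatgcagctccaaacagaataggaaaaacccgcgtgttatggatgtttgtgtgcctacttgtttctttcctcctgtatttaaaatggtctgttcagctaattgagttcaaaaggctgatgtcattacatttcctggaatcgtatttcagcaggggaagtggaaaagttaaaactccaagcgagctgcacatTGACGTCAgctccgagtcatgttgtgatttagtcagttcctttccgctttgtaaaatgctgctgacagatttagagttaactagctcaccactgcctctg

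The first base of the complete element stood at position -179 from the CREB3L2 start and at position -50 from this CREM start, which lies downstream of other CREM starts. It was found in 3 of 21 member windows, of 2 genes, and the CREM windows with it overlap each other. Over all 35116 windows the share was 1.85%. The core was found in 6 of 21 member windows, of CREB3L2, CREB3, CREM and CREBBP, and in 24.6% of all windows. The 3 windows of CREB5 held no core. A match is a description of letters and not a measured binding site.

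The values are the deposited linear signals. Signals under 97.1, the median of all signals, were raised to this floor, a probe set counted as measured when at least 1 of the 2 arrays compared exceeded it, and a difference of at least 2-fold (1 on the log2 scale) was counted. A ratio with a signal under the floor is a bound. Median signals of the arrays lay between 89.3 and 109.1. Of the 31 member probe sets, 26 lay above the floor on all 5 arrays, and 1, of CREBBP, on none. The level of a probe set was compared only between arrays, since probe sets differ in how well they bind.

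The labelled tissue was checked against its markers. The 11 prostate luminal and epithelial markers with a probe set, of 13 listed, had a summed signal of 16698 in the control and of 14356, 1946, 1470.1 and 16214 on the treated arrays in order. All 11 were at least 2-fold below the control on BR-DIM 48 h and also on isoflavone 6 h, where 6 of them, KLK2, FOLH1, TMPRSS2, GRHL2 and EHF on both, KLK3 on the former and CDH1 on the latter, were under the floor. These defining markers of prostate epithelium were thus absent or low on these arrays. On isoflavone 72 h the sum was near the control's, but KLK3 and KLK2 were at least 2-fold lower (log2 ratios -1.72 and -2.51). CDH1 and EHF were above the control there (0.77 and 0.65). Of 9 mesenchymal and stromal markers, 5 to 7 were above the floor on each array, with summed signals from 34544 (control) to 61494 (BR-DIM 48 h). In the control, VIM, FN1 and CDH2 gave 22024, 9145 and 2098, while COL1A2, DCN and LUM were under the floor. Of 4 neuroendocrine markers with a probe set, CHGA and SYP were under the floor on every array, and the summed signals ran from 1049 (control) to 2096 (isoflavone 72 h). The other markers, NCAM1 and INSM1, gave 716 and 218 in the control. NCAM1 had log2 ratios of 0.525, 0.51, 0.28 and 1.03 in order. INSM1 had 0.47, 1.92, -1.165 and 1.43, the value on isoflavone 6 h being a bound. Leukocyte markers were under the floor but for CD3E on BR-DIM 6 h. This applies to every value below from BR-DIM 48 h or isoflavone 6 h, whether or not it is said again there, and the part of the marker difference in those values was not tested. Whether these or the other arrays, the control included, hold the labelled cells was not tested either. An effect of the agents and another source of the RNA thus cannot be told apart. In bulk RNA, fewer cells of a type and less RNA per cell cannot be told apart.

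CREB3L2 and CREB5 were the members with the most values at least 2-fold above the control, and most other members stayed within 2-fold. On BR-DIM 6 h, 3 of 28 measured member probe sets passed 2-fold upward and 0 downward, where 2.56% and 1.38% of all measured probe sets were. On BR-DIM 48 h the members gave 3 of 28 higher and 0 lower, beside 4.82% and 4.41%. On isoflavone 6 h they gave 2 of 28 higher and 1 lower, beside 1.18% and 3.52%. On isoflavone 72 h they gave 3 of 27 higher and 0 lower, beside 4.21% and 3.19%. With counts this small no share was set apart from the background. The 11 values higher came from 7 probe sets of CREB3L2, CREB5, CREM and ATF2, and the 1 value lower from EP300. Among probe sets measured on all 4 treated arrays, 7 of 27 members were at least 2-fold higher on 1 or more, beside 8.39% of all. Lower were 1 of 27, beside 10.27%. Several of the 7 read the same gene. Without BR-DIM 48 h and isoflavone 6 h, 4 of these 7 probe sets, of CREB3L2, CREB5 and CREM, were left and 0 lower. The share over all probe sets was not taken for that count. Of 27 member probe sets measured on all 4 treated arrays, 5 were above the control on each and 4 below on each. Over all probe sets so measured the shares were 16.9% and 20.65%, and the 4 ratios share 1 control array. The median log2 ratio of the members was 0.17, 0.01, -0.10 and 0.14 in order, beside 0.04, 0.03, -0.01 and 0.00 over all probe sets. At 1.5-fold, 7, 9, 3 and 7 member probe sets were higher in order, beside 11.6%, 15.5%, 7.23% and 13.8% of all. Lower were 1, 3, 4 and 1, beside 7.38%, 14.2%, 11.6% and 12.9%. The values nearest to the 2-fold threshold were 0.99 (CREB5 on BR-DIM 6 h) below it and 1.12 (ATF2 on BR-DIM 48 h) above it.

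**Figure D1:**
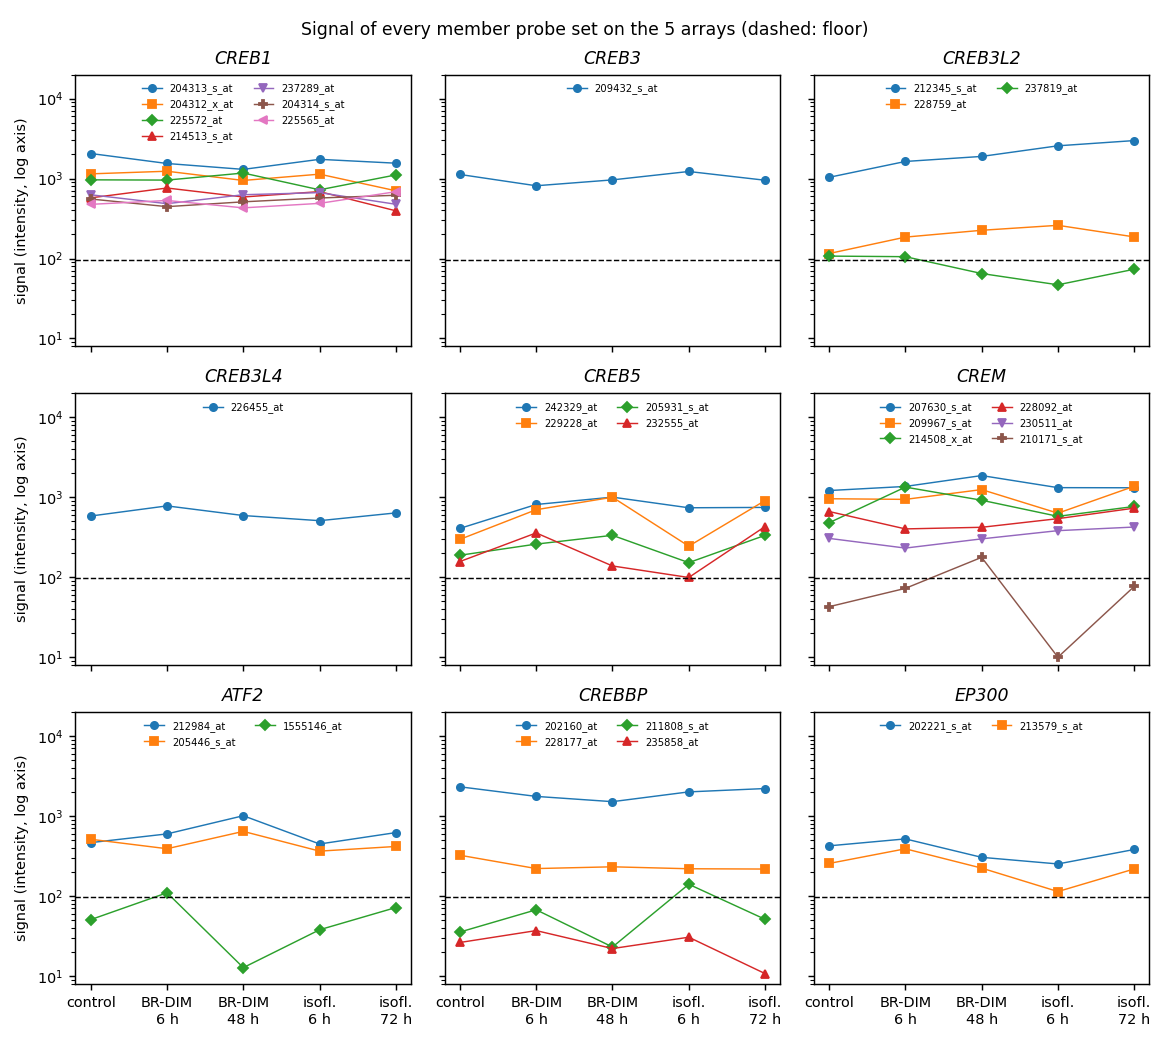
Signal (intensity, log axis) of all 31 member probe sets on the 5 arrays, 1 panel for each gene, 1 line for each probe set with a dashed line at the floor, 97.1. CREB1 lines each stay within 2-fold and cross each other, CREB3L2 probe sets 212345_s_at and 228759_at start lowest in the control, and both EP300 lines are lowest on isoflavone 6 h.

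CREB1, the factor that gives the family its name, had 7 probe sets, all above the floor on every array and none as much as 2-fold from the control on any. Its brightest, 204313_s_at, gave 2057 in the control, 1543 and 1303 on BR-DIM 6 h and 48 h, and 1739.6 and 1557 on isoflavone 6 h and 72 h. By this probe set CREB1 was lower on all 4 treated arrays, the log2 ratios lying between -0.66 (BR-DIM 48 h) and -0.24 (isoflavone 6 h). Probe set 214513_s_at had 574 in the control, 761.5 and 588 under BR-DIM and 687 and 395 with isoflavone. It was thus higher than the control at 6 h with either agent (log2 ratios 0.41 and 0.26), about level on BR-DIM 48 h (0.04), and lower on isoflavone 72 h (-0.54).

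The other CREB1 probe sets went their own ways. Probe set 204312_x_at had 1145 in the control, 1235 and 947 under BR-DIM, and 1135 and 703 with isoflavone, with its lowest ratio on isoflavone 72 h (-0.70). In contrast, 225565_at was highest on that array, at 685 against 476 in the control (0.53). Probe set 225572_at ran from 723 on isoflavone 6 h to 1172 on BR-DIM 48 h, and 237289_at and 204314_s_at ran from 477 to 667 and from 445 to 618. On isoflavone 72 h, 3 CREB1 probe sets were above the control and 4 below, with a range of 1.23 between them on the log2 scale. The mean log2 ratio over the 7 probe sets was -0.06 ± 0.31, -0.13 ± 0.29, -0.03 ± 0.22 and -0.17 ± 0.46 (SD between probe sets, n = 7) in order. The mean was smaller than the spread between probe sets on each array, so the direction of CREB1 depends on which probe set is read. Its highest signal fell on each of the 5 arrays for at least 1 probe set.

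CREM, which encodes activators as well as repressors of CRE genes, was read by 6 probe sets. Their directions also disagreed, except on isoflavone 72 h. CREM is known to have an internal promoter for the short repressor ICER, and the probe sets were not matched to isoforms here. The brightest, 207630_s_at, had 1214.5 in the control, 1367 and 1869 under BR-DIM, and 1320.0 and 1315 with isoflavone. All treated signals were above the control, by log2 ratios of 0.12 (isoflavone 72 h) to 0.62 (BR-DIM 48 h). Probe set 214508_x_at was past 2-fold on BR-DIM 6 h, going from 480.1 in the control to 1341, a log2 ratio of 1.48. Its signal was 919 on BR-DIM 48 h and 578 and 768 on isoflavone 6 h and 72 h, all under 2-fold. Its ID ends in _x_at, so the 2-fold value is dropped where such probe sets are left out.

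On BR-DIM 6 h itself, CREM probe set 228092_at went the other way, with 402 against 664 in the control (-0.72), as did 230511_at (-0.40). The 5 measured CREM probe sets there spanned 2.21 on the log2 scale, the widest span of any member on any array against the control, with a mean of 0.10 ± 0.85 (SD between probe sets, n = 5). Probe set 209967_s_at had its lowest signal on isoflavone 6 h, 633 against 959 in the control and 1373 on isoflavone 72 h. Probe set 230511_at ran from 232 (BR-DIM 6 h) to 424.5 (isoflavone 72 h). On isoflavone 72 h all 5 measured CREM probe sets were above the control and under 2-fold. Their mean was 0.38 ± 0.25 (SD between probe sets, n = 5). The dim 210171_s_at was above the floor on BR-DIM 48 h alone, at 177.

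ATF2, a factor activated by the stress kinases JNK and p38, was highest on BR-DIM 48 h by both probe sets that lay above the floor throughout, and lowest on isoflavone 6 h by both. Probe set 212984_at had 465 in the control, 597.5 and 1008.5 under BR-DIM, and 447 and 620.5 with isoflavone. Its log2 ratio on BR-DIM 48 h was 1.12, past 2-fold, though 0.98 with the floor as a pseudocount and 0.72 over both measured probe sets. Probe set 205446_s_at read 512 in the control, 389.9 and 642.5 under BR-DIM, and 364 and 416 with isoflavone. It placed ATF2 below the control on 3 of 4 arrays, so the probe sets shared the order of the highest and lowest array but not the sign against the control. The third, 1555146_at, was above the floor on BR-DIM 6 h alone, at 109.7. The high value came from an array low in prostate markers.

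CREB5, a CRE-binding factor close to ATF2, had 4 probe sets, all above the floor on every array. Probe set 242329_at, the brightest, had 408 in the control, 813 and 1004 under BR-DIM and 739 and 747 with isoflavone. The control was the lowest, and the log2 ratios were 0.99, 1.30, 0.86 and 0.87 in order, of which 1.30 came from an array low in prostate markers. Probe set 229228_at had 298 in the control, 699.5 and 1001.5 under BR-DIM, and 245 and 909.8 with isoflavone. It was past 2-fold at both BR-DIM times (1.23 and 1.75, the latter on an array low in prostate markers) and on isoflavone 72 h (1.61), and a little under the control on isoflavone 6 h (-0.28). With the floor raised to the 75th percentile of signals the first and the last of these ratios came to 0.57 and 0.95.

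CREB5 probe set 205931_s_at had 188 in the control, 259.7 and 334 under BR-DIM, and 152 and 334 with isoflavone. Probe set 232555_at had 157 in the control, 358 and 138 under BR-DIM, and 99.3 and 431 with isoflavone. The latter was past 2-fold on BR-DIM 6 h (1.19, or 0.84 with a pseudocount) and isoflavone 72 h (1.45) and below the control on BR-DIM 48 h (-0.18). All 4 probe sets of CREB5 were thus above the control at 6 h of BR-DIM and at 72 h of isoflavone, with means of 0.97 ± 0.35 and 1.19 ± 0.40 (SD between probe sets, n = 4). These are the treated arrays whose prostate markers were near the control's. On isoflavone 6 h, 3 of 4 were below the control, and 3 of 4 had their lowest signal of all there.

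CREB3L2, a membrane-bound factor of secretory cells, was above the control on all 4 treated arrays by both of its brighter probe sets. Of all probe sets measured on all 4, 16.9% were above the control on each. Probe set 212345_s_at had 1036 in the control, 1636 and 1892 with BR-DIM at 6 h and 48 h, and 2567.5 and 2985 with isoflavone at 6 h and 72 h. No treated signal was near the control's, and both isoflavone signals were above both BR-DIM signals. The log2 ratios were 0.66, 0.87, 1.31 and 1.53, past 2-fold with isoflavone alone. Isoflavone 6 h is low in prostate markers, while on isoflavone 72 h 2 of 11, KLK3 and KLK2, were at least 2-fold lower. Probe set 228759_at, whose ID carries no _s_at, had 115 in the control, 185 and 225 under BR-DIM, and 260.1 and 186 with isoflavone. Its log2 ratios were 0.68, 0.97, 1.17 and 0.69, so it passed 2-fold on isoflavone 6 h (0.75 with a pseudocount) but not on isoflavone 72 h, and its control signal lay close to the floor.

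The remaining CREB3L2 probe set, 237819_at, was above the floor only in the control and on BR-DIM 6 h, at 107 and 105. Averaged over all 3 measured probe sets, CREB3L2 was 0.78 and 0.69 at the isoflavone times. Among the brightest probe sets of the members, that of CREB3L2 had the widest range over the 5 arrays, 1.53 on the log2 scale, while dimmer probe sets of CREB5 and EP300 had wider ones, of up to 4.34-fold (CREB5 232555_at). The 3 genes whose brightest probe set followed that of CREB3L2 most closely, of 10551 ranked, were GUCY1B2, TERF2IP and AASDHPPT, with Pearson correlations of log2 signal from 0.995 to 0.996 over 5 arrays. Their own ranges were narrower, 1.26-fold, 1.58-fold and 1.35-fold against 2.88-fold for CREB3L2. With 5 arrays, 187 genes reached a correlation of 0.9, so this is a description only.

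CREB3 and CREB3L4, relatives of CREB3L2, had 1 probe set each and stayed within 2-fold. CREB3, the founding member of the membrane-bound group, had 1125 in the control, 813 and 962 under BR-DIM, and 1226 and 953 with isoflavone. CREB3L4, a form known to be abundant in prostate, had 583 in the control, 781 and 591 under BR-DIM, and 509.8 and 638 with isoflavone. Its extremes were the arrays at 6 h, highest under BR-DIM and lowest with isoflavone, and CREB3 had the opposite order at 6 h.

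Of the coactivators, CREBBP was below the control on every treated array by both bright probe sets, and EP300 on 3 of 4. Among all probe sets measured on all 4, 20.65% were below the control on each. CREBBP had 2319.6 in the control by its brightest probe set, 202160_at, with 1759.6 and 1512 under BR-DIM, and 2004 and 2207 with isoflavone. The log2 ratios ran from -0.62 (BR-DIM 48 h) to -0.07 (isoflavone 72 h). Probe set 228177_at had 323 in the control and treated signals of 217 to 232, with log2 ratios from -0.57 to -0.48. Both probe sets were thus highest in the control and neither passed 2-fold. The dim 211808_s_at was above the floor on isoflavone 6 h alone, at 140.1.

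EP300 followed another order, which both of its probe sets shared. Probe set 202221_s_at had 424 in the control, 517 and 304 with BR-DIM at 6 h and 48 h, and 251.5 and 381.5 with isoflavone at 6 h and 72 h. Probe set 213579_s_at had 255 in the control, 389 and 223 under BR-DIM, and 114 and 218 with isoflavone. Both were highest on BR-DIM 6 h, the only treated array above the control, and lowest on isoflavone 6 h. The log2 ratios on isoflavone 6 h were -0.75 and -1.17, the latter the single member value at least 2-fold below the control (-0.74 with a pseudocount). BR-DIM 48 h was below the control as well, at -0.48 and -0.19, and isoflavone 72 h at -0.15 and -0.23. The lowest values lay on an array low in prostate markers.

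**Figure D2:**
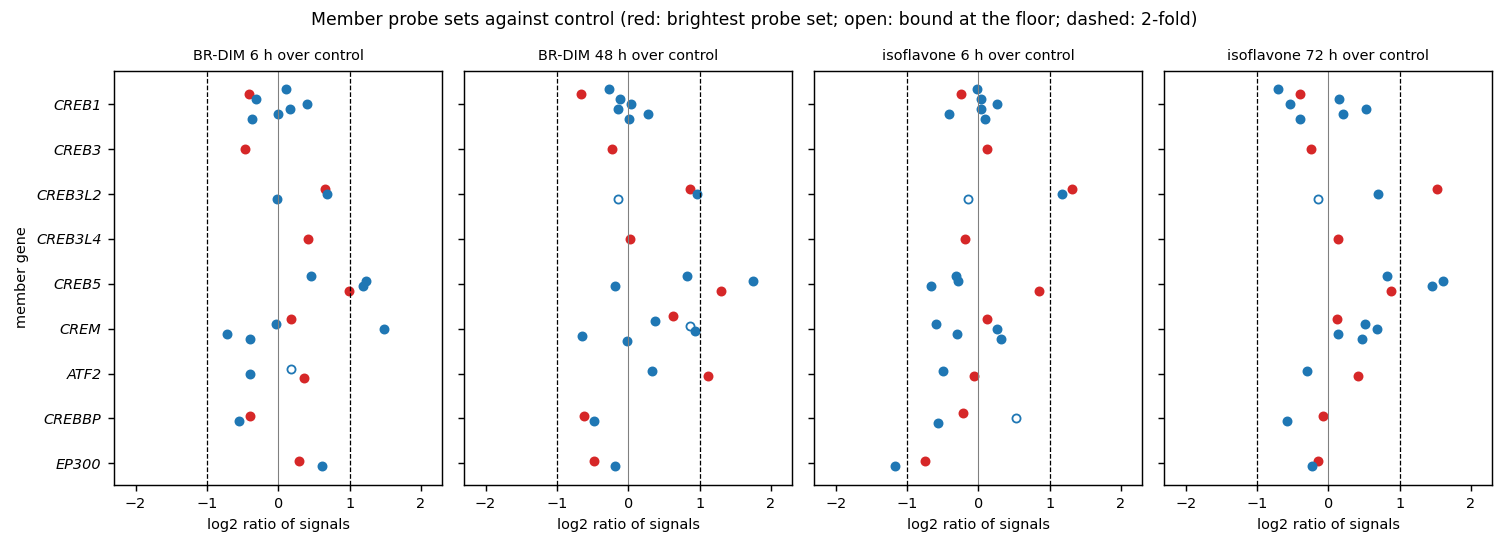
Log2 ratio to the control (horizontal axis) of every measured member probe set by gene (vertical axis), 1 panel for each treated array, with the brightest probe set of a gene in red, open points as bounds at the floor and 2-fold as dashed lines. The brightest CREB3L2 probe set lies past 2-fold on both isoflavone arrays, and another on isoflavone 6 h alone. CREB5 reaches 1.75 on BR-DIM 48 h, and the 7 points of CREB1 straddle 0 on every array.

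The spread between probe sets of a gene was set beside that of all genes with at least 2 measured probe sets. The median range over the 7 such members was 0.76, 0.94, 0.92 and 0.71 on the log2 scale in order. Over all such genes, between 6427 and 6663, it was 0.48, 0.54, 0.46 and 0.60. Members were read by up to 7 probe sets, and a range widens with their number. Probe sets on both sides of the control occurred in 4, 4, 5 and 3 of the 7 members, and in 51.8%, 46.5%, 50.7% and 51.5% of all genes. On each treated array, 2 of 7 members had some but not all probe sets past 2-fold, beside 9.1%, 18.6%, 8.9% and 16.1% of all genes.

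Comparisons between treated arrays left the shared control out. BR-DIM and isoflavone were matched in stated dose and time at 6 h alone. There, 5 of 29 member probe sets passed 2-fold in favour of BR-DIM and 0 of isoflavone, where 5.86% and 1.57% of all measured probe sets were. The 5 were both probe sets of EP300, 2 of CREB5 and 1 of CREM. EP300 was higher by log2 ratios of 1.04 and 1.78, although the former was 0.91 with quantile normalization and 0.13 with the 75th percentile as floor. CREB5 was higher by 1.52 (229228_at, or 0.57 with that floor) and 1.85 (232555_at) but by 0.14 in its brightest probe set. CREM was higher by 1.22 in 214508_x_at. CREB3L2 lay the other way and under 2-fold, with -0.65 and -0.49 in its brighter probe sets. At 1.5-fold, 7 were higher under BR-DIM and 3 lower, beside 16.2% and 8.08%. Isoflavone 6 h is an array low in prostate markers, so agent and array content cannot be told apart here.

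Between the times of BR-DIM, 0 of 29 member probe sets were at least 2-fold higher at 48 h and 1 lower, beside 2.05% and 3.69% of all. The 1 was CREB5 probe set 232555_at (-1.37, or -0.95 with a pseudocount), while the other 3 CREB5 probe sets were 0.31 to 0.52 higher at 48 h. Both ATF2 probe sets were higher at 48 h (0.76 and 0.72) and both EP300 ones lower (-0.77 and -0.80). Between the times of isoflavone, 4 of 27 were at least 2-fold higher at 72 h and 0 lower, beside 6.49% and 2.75%. These were CREB5 probe sets 229228_at (1.89), 232555_at (2.12) and 205931_s_at (1.13), and CREM probe set 209967_s_at (1.12). Of these CREB5 values, 205931_s_at was 0.96 with quantile normalization and 0.79 with a pseudocount, and 229228_at was 0.95 with the 75th percentile as floor. The brightest CREB5 probe set had 0.02 there. CREB1 probe sets 214513_s_at (-0.80) and 204312_x_at (-0.69) were lower at 72 h, and 225572_at (0.62) and 225565_at (0.49) higher. At 1.5-fold, the BR-DIM times gave 3 higher and 3 lower, beside 9.46% and 12.6%, and the isoflavone times 7 and 2, beside 16.7% and 12.4%. Each of these comparisons contains 1 array low in prostate markers, BR-DIM 48 h or isoflavone 6 h.

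**Figure D3:**
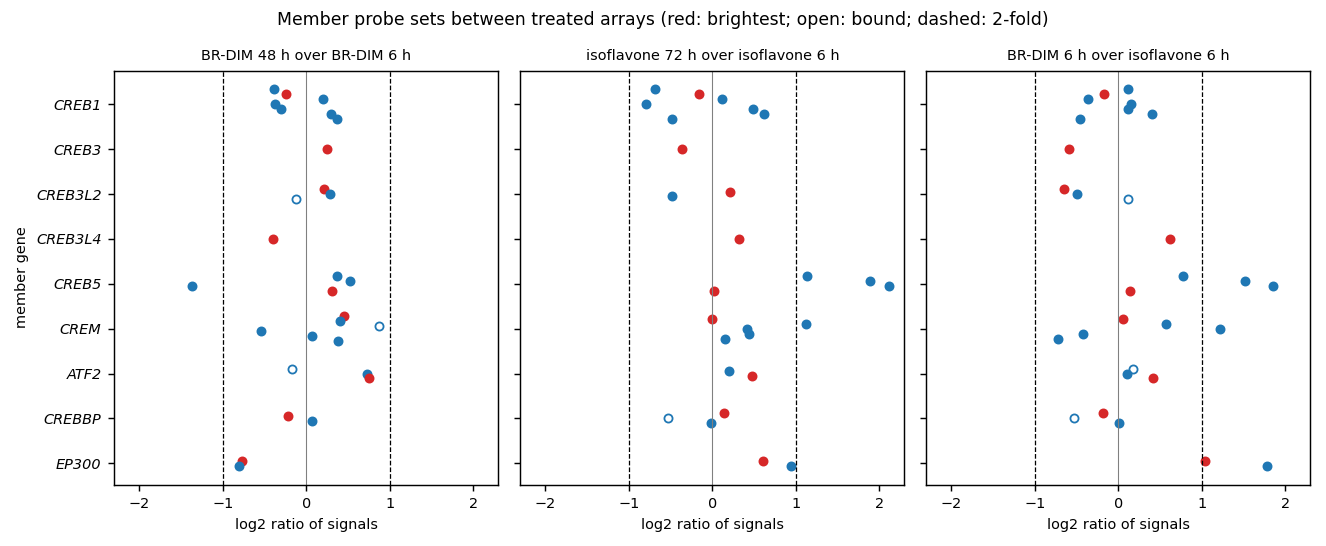
Log2 ratio between treated arrays (horizontal axis) of every measured member probe set by gene, for the later over the earlier time of each agent and for BR-DIM over isoflavone at 6 h, with red points for the brightest probe set, open points for bounds and dashed lines at 2-fold. CREB5 points spread from 0.02 to 2.12 between the isoflavone times, and both EP300 points lie past 2-fold at 6 h.

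Genes that act before, beside and after CREB were taken from lists, by the brightest probe set of each gene. Over all genes, 2.86%, 5.33%, 1.18% and 4.8% were at least 2-fold above the control in order, and 0.806%, 3.87%, 3.82% and 2.06% lower. Of 25 kinases, cyclases and inhibitors that act upstream of CREB, 0, 2, 1 and 1 were higher and 1, 1, 3 and 0 lower. The list medians were -0.05, -0.02, -0.12 and 0.07, where those of all genes were 0.07, 0.06, 0.00 and 0.05. RPS6KA2, a ribosomal S6 kinase of the growth factor pathway, had 522 in the control, 997 and 1172 under BR-DIM and 1129 and 1495 with isoflavone. It was past 2-fold on 3 arrays by this probe set (log2 ratios 1.17, 1.11 and 1.52, BR-DIM 6 h being the exception) and 0.95 to 0.97 on them over all its probe sets.

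PRKACB, a catalytic subunit of protein kinase A, had 8163 in the control, 7888 and 2926 under BR-DIM, and 3967 and 8588 with isoflavone. It passed 2-fold downward on both arrays low in prostate markers, BR-DIM 48 h (-1.48) and isoflavone 6 h (-1.04), and level on the other treated arrays. PRKAR1B, a regulatory subunit, was lower on BR-DIM 6 h (-1.22, a bound), CAMK2D, a calcium-dependent kinase, was higher on BR-DIM 48 h (1.13, or 0.61 over all probe sets), and PKIB, an inhibitor of protein kinase A, and CAMK1, a calcium-dependent kinase, were lower on isoflavone 6 h (-1.11 and -1.33). All but PRKAR1B were thus past 2-fold on an array low in prostate markers. Of these, PRKAR1B, PKIB and CAMK1 did not pass with a pseudocount (-0.80, -0.88 and -0.98). CAMK1 was -0.565 over all probe sets, and PKIB was -0.18 with the 75th percentile as floor.

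Of 8 CREB-regulated coactivators, salt-inducible kinases and acetyltransferases, 2 passed 2-fold upward on BR-DIM 48 h, and none in either direction on the other 3 arrays. On BR-DIM 48 h the prostate markers summed to 1946 against 16698 in the control. CRTC1, a CREB coactivator that moves to the nucleus on cAMP and calcium signals, had 150.2 in the control, 236.5 and 422 under BR-DIM, and 239.6 and 167 with isoflavone (1.49 on BR-DIM 48 h). KAT2B, the acetyltransferase PCAF, was 1.01 there (0.88 with a pseudocount). The other CREB coactivators CRTC2 and CRTC3 and the kinases SIK2 and SIK3 lay between -0.44 and 0.69 on all arrays.

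Of 29 genes known as CRE targets, 27 had a probe set and 19, 18, 15 and 16 were measured. At least 2-fold higher were 1, 2, 2 and 2 of them, and lower 0, 1, 0 and 0. The list medians were 0.38, 0.41, 0.01 and 0.27, and many of the 27 lay under the floor. Genes under it in the control, such as NR4A3, PDE4B and VGF, counted as measured only where a treated signal exceeded it. Their ratios are bounds that could only point upward. The medians therefore cannot be read as a shift of the whole list. DUSP1, a MAP kinase phosphatase, had 2016 in the control, 3985 and 6383 under BR-DIM, and 2819.5 and 4251.5 with isoflavone. It passed 2-fold at the later time of each agent (1.66 with BR-DIM and 1.08 with isoflavone, the latter 0.28 over all probe sets). On BR-DIM 6 h DUSP1 was just under the threshold, at 0.98. EGR1, an early response factor, had 396 in the control, 555 and 509.6 under BR-DIM, and 1189.7 and 1597 with isoflavone, past 2-fold with isoflavone alone (1.59 and 2.01).

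PDE4D, a phosphodiesterase that breaks down cAMP, was past 2-fold on BR-DIM 6 h (1.08, or 0.46 over all probe sets). IRS2, an adaptor of the insulin receptor, was so on BR-DIM 48 h and isoflavone 6 h (1.23 and 1.24, or 0.92 and 0.94 over all probe sets), which are the arrays low in prostate markers, and CCND1, the cyclin D1 gene, was lower on BR-DIM 48 h (-1.29, or -0.94 over all probe sets). FOSB, SST, CRH, SCG2, PENK and CHGA, which answer to cAMP in neurons and endocrine cells, were under the floor on every array. DUSP1, IRS2 and EGR1 each passed 2-fold on 2 arrays, and PDE4D and CCND1 on 1.

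Of 11 further factors of the CREB and ATF group, 10 were measured on each array, with 2, 5, 1 and 5 at least 2-fold higher and 0, 1, 0 and 0 lower. The list medians were 0.38, 0.72, 0.21 and 0.84. ATF3, a stress-induced repressor, was higher on all 4 arrays, with 1134 in the control, 6934 and 10704 under BR-DIM, and 3366.5 and 6023 with isoflavone. Over all its probe sets the log2 ratios of ATF3 were 2.07, 2.07, 0.62 and 1.41 in order, so that isoflavone 6 h no longer passed. ATF4, which drives amino acid genes, had a control signal of 13046 and treated signals of 29417, 33336, 10250.5 and 31622 in order, so that isoflavone 6 h alone was not above the control. CREBRF, a regulator of CREB3, ATF5 and ATF6, a membrane-bound factor of the unfolded protein response, were past 2-fold on BR-DIM 48 h (1.48, 1.13 and 1.16) and isoflavone 72 h (1.14, 1.33 and 1.19). Over all probe sets ATF6 was 0.89 and 0.88 on them. With a pseudocount ATF5 was 0.85 on BR-DIM 48 h and CREBRF 0.90 on isoflavone 72 h, and with the 75th percentile as floor CREBRF was 0.61 and 0.26 and ATF5 0.06 on isoflavone 72 h. ATF7, a close relative of ATF2, was lower on BR-DIM 48 h (-1.15, or -0.19 over all probe sets).

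Of 5 genes that process the membrane-bound CREB3 group or are known as its secretory targets, 1, 1, 0 and 2 were at least 2-fold higher and 0 lower on each array. MBTPS2, the protease S2P that frees these factors, had 3723 in the control, 4769 and 7365 under BR-DIM and 5305 and 9060 (9059.5) with isoflavone. It was past 2-fold on isoflavone 72 h (1.28, or 0.55 over all probe sets). SEC24D, a coat protein of vesicles leaving the endoplasmic reticulum, was under the floor in the control at 90.9, with 238 and 350.1 under BR-DIM and 111 and 230.3 with isoflavone, so that its log2 ratios of 1.29 and 1.85 under BR-DIM and 1.25 on isoflavone 72 h are bounds. With a pseudocount the BR-DIM 6 h and isoflavone 72 h values of SEC24D were 0.83 and 0.80, and over all probe sets the former was 0.78. MBTPS1, the protease S1P, and SEC23A lay between -0.28 and 0.34 on all arrays. HCFC1, a partner of CREB3, had log2 ratios of -0.19, -0.93, 0.22 and -0.50 in order.

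**Figure D4:**
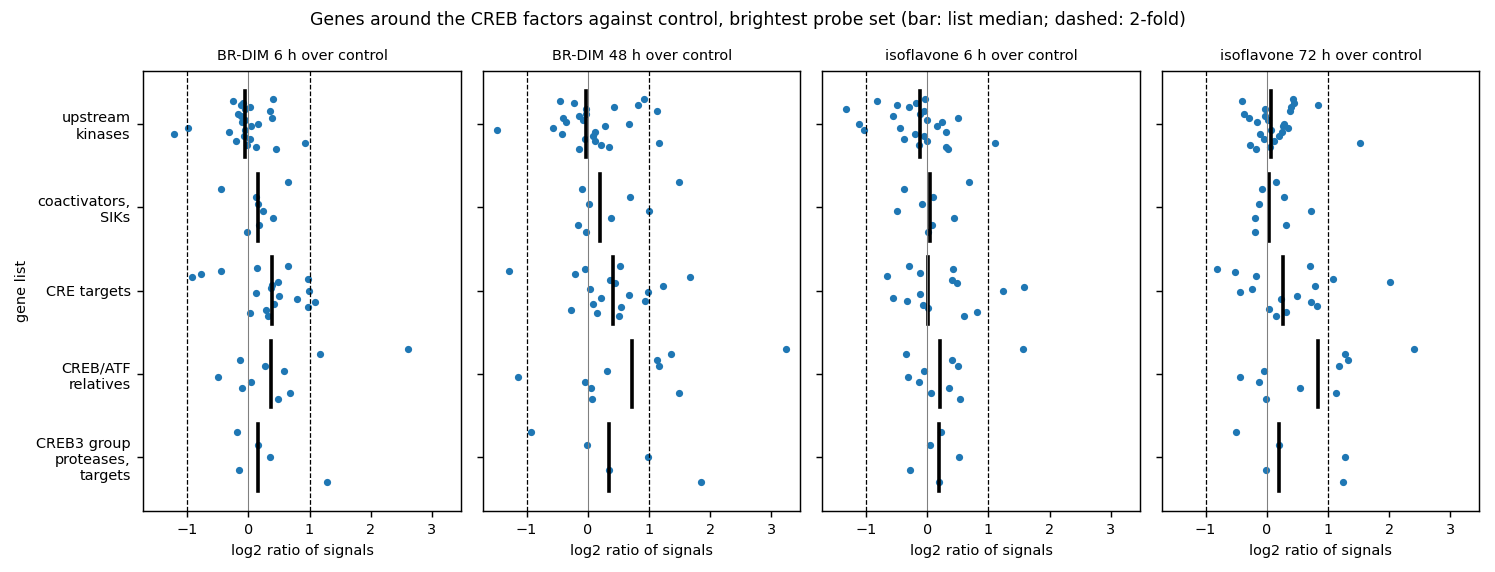
Log2 ratio to the control (horizontal axis) of every measured gene of 5 lists (vertical axis) on each treated array, 1 point for each gene by its brightest probe set, black bars for list medians and dashed lines at 2-fold. The upstream kinases centre near 0, while the CREB and ATF relatives reach a median of 0.84 on isoflavone 72 h, with ATF3 farthest out at 3.24 on BR-DIM 48 h.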

How the data were processed

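Each of the 5 arrays was a Human Genome U133 Plus 2.0 array of 1 RNA sample. The deposited values are intensity signals on a linear scale, 1 for each probe set, which the authors made and normalized with Microarray Suite (MAS5 in the submitters' processing notes), MicroDB and Data Mining Tool. Its target and the detection calls are not given in the sources used here. Such scaling assumes that arrays are alike in total signal, and the number of arrays limits the precision.

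Of 54613 probe sets, 41091 carry 1 gene in the gene table, 1801 several and 11721 none there. Symbols were updated by gene ID for 41037. Signals were floored at their median (97.1) and divided, with no test. A gene's value was that of its brightest probe set by mean signal. Counts and medians were set beside those of all measured probe sets or genes. Computations used Python 3.11.15, numpy 2.4.6 and pandas 2.3.3, and the calling step was tested on simulated data.

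The members and lists were chosen with earlier results of these data known. Named were all members, every listed gene past 2-fold against the control, the markers, and the 3 genes closest in pattern to the member whose brightest probe set had the widest range. CRE targets under the floor, CREB3 group genes and coactivators within 2-fold were named after their values were seen. Alternatives were quantile normalization, median ratio scaling, no floor, the 75th percentile (471.7) as floor, the floor as a pseudocount, no _s_at or _x_at probe sets, all probe sets averaged, a 1.5-fold rule, and the counts over BR-DIM 6 h and isoflavone 72 h alone. No array could be left out as a replicate.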

Additional observations from a re-analysis of the deposited data

Results flagged for a closer look

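Member probe sets were looked at again where a pair of treated arrays stood at least 1.5-fold from the control in opposite directions. With 1 array on each side these differences were not tested. EP300 probe set 213579_s_at was above the control on BR-DIM 6 h (log2 ratio 0.61) and below it on isoflavone 6 h (-1.17), a difference of 1.78. CREB5 probe set 232555_at was above the control on BR-DIM 6 h (1.19) and below it on isoflavone 6 h (-0.66), a difference of 1.85. This probe set was also above the control on isoflavone 72 h (1.45), so that isoflavone 6 h less isoflavone 72 h came to -2.12. Isoflavone 6 h, with a prostate marker sum of 1470.1 against 16698 in the control, is on the low side of each. Its signals lay close to the floor, at 113.6 for EP300 and 99.3 for CREB5. With a pseudocount EP300 was -0.74 on isoflavone 6 h and CREB5 0.84 on BR-DIM 6 h. BR-DIM 6 h over isoflavone 6 h was then 1.21 for each, and isoflavone 72 h over isoflavone 6 h 1.43 for CREB5. The brightest CREB5 probe set, 242329_at, was above the control on both 6 h arrays (0.99 and 0.86). On isoflavone 6 h, 3 of 4 CREB5 probe sets were below the control.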

How the results depend on the processing

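No paired analysis was possible because each condition has 1 array. Median ratio scaling kept each member call, and no called member value changed sign under any alternative. Of 22 member probe set values past 2-fold, 20 were kept with quantile normalization, 15 with the floor as a pseudocount and 8 of the 13 still measured with the 75th percentile as floor. Of 37 values of listed genes, 21 were kept with all probe sets averaged and 26 with a pseudocount. Signals near the floor limit the dim probe sets. The causes of the following shifts were not tested beyond the rules themselves. The counts below describe how the calls move with each rule. Shares over all probe sets at 1.5-fold are given above for single comparisons. Under the other rules such shares were not taken, so these counts are not results about the members or lists. With no floor, probe sets under 97.1 on both arrays were counted too.

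With the 1.5-fold rule, members higher numbered 7, 9 and 7 on all but isoflavone 6 h, and lower 1, 3, 4 and 1 on the 4 arrays in order (11 and 8 on at least 1 array). Between treated arrays they were 3 higher and 3 lower (BR-DIM times), 7 and 2 (isoflavone times) and 3 lower (BR-DIM over isoflavone at 6 h).

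With a pseudocount, members on isoflavone 6 h were 1 higher and 0 lower, those lower on any array 0 and between BR-DIM times 0. Listed genes were 2 higher and 0 lower on BR-DIM 6 h and 1 lower on isoflavone 6 h.

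With the 75th percentile as floor, 1 member was higher on each array except BR-DIM 48 h, 1 between isoflavone times and 1 between the agents at 6 h. None (0) was lower on isoflavone 6 h, on any array or between BR-DIM times, and the isoflavone 6 h median was 0.04. Listed genes were 2 higher and 0 lower on BR-DIM 6 h, 7 higher on BR-DIM 48 h and 1 lower on isoflavone 6 h.

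With no floor, members lower were 1 on BR-DIM 48 h, 3 and 1 on the isoflavone arrays, and 5 on any array. Between treated arrays they were 1 higher and 3 lower (BR-DIM times), 2 lower (isoflavone times), and 8 higher and 1 lower (6 h). Medians were 0.29 on BR-DIM 6 h and 0.073 between BR-DIM times. Listed genes were 13 higher and 2 lower on BR-DIM 6 h, 20 higher on BR-DIM 48 h, and 12 and 3 lower on isoflavone 6 h and 72 h.

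With _s_at and _x_at probe sets left out, members higher were 1 on isoflavone 6 h, 2 between isoflavone times and 2 between the agents at 6 h, and 0 lower on isoflavone 6 h or any array. Medians were 0.31 on isoflavone 72 h, 0.073 between BR-DIM times and 0.32 between isoflavone times, and CREB3L2 on isoflavone 72 h was 0.69.

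With all probe sets averaged, listed genes higher were 2 on BR-DIM 6 h and 1 and 6 on the isoflavone arrays, and lower 1 each on BR-DIM 48 h and isoflavone 72 h. CREB5 moved past 2-fold on isoflavone 72 h (1.19), between isoflavone times (1.29) and between the agents at 6 h (1.07), and fell short on BR-DIM 48 h (0.92). With quantile normalization 2 listed genes were lower on BR-DIM 6 h. That setting also changed the split of all calls, from 65.0% to 51.7% higher on BR-DIM 6 h, 25.0% to 36.2% on isoflavone 6 h, 35.7% to 50.6% between BR-DIM times, 70.2% to 58.7% between isoflavone times and 78.9% to 60.2% between the agents at 6 h. Over BR-DIM 6 h and isoflavone 72 h alone, 4 members were higher and 0 lower.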
